A study of Mus musculus with 20 samples.

Results

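The S100 proteins and the annexins were read in the livers of mice on a steatohepatitis diet. The 10 genes were chosen by name: the S100 genes S100a4, S100a6, S100a8, S100a9, S100a10 and S100a11, and the annexin genes Anxa1, Anxa2, Anxa3 and Anxa5. Each name occurred once among the 38924 genes of the expression table, and all 10 passed the filter on low values (above 0.5 FPKM in at least 5 libraries) that left 14524 genes for testing, also on the control diet libraries alone. The choice used no measured value of a library, but it was made with earlier results of these data known.

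Livers came from 20 male C57BL/6J mice, 5 in each of 4 groups. The mice were 5 weeks old on arrival and then received control chow or CDAHFD, a choline deficient high fat chow defined by its L-amino acids and low in methionine, for 12 weeks. Wild type mice were NDWT on control chow and HFWT on CDAHFD. Mice with a constitutive deletion of Thbs1, the gene of thrombospondin-1 (TSP-1), were NDKO on control chow and HFKO on CDAHFD, so that TSP-1 was targeted in every cell type and throughout life. The samples are bulk tissue, and poly(A) RNA of all liver cells was sequenced together. The questions were how the diet changed the liver transcriptome and whether loss of TSP-1 altered that change.

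S100 proteins are small calcium binding proteins with paired EF hands, and annexins are calcium dependent proteins that bind acidic phospholipids in membranes. The families meet directly, since S100a10 binds Anxa2 and S100a11 binds Anxa1, and such complexes link membranes during repair, exocytosis and endocytosis. S100a8 and S100a9 form calprotectin, an abundant cytosolic complex of neutrophils and monocytes that acts as a danger signal once released. In the liver, the parenchymal cells carry some family members, while others are known from myeloid cells, bile ducts and activated mesenchyme.

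The S100 members lie in a pair of stretches of chromosome 3, S100a4 to S100a9 in one and S100a11 and S100a10 in the other, 2824767 bases further on. In the GRCm38 coordinates of the table, S100a4 (ENSMUSG00000001020.7) lies at chr3:90603770-90606045 on the plus strand, 6849 bases before S100a6 (chr3:90612894-90614414, plus strand). S100a8 (chr3:90669071-90670034, plus strand) is 22598 bases before S100a9 (chr3:90692632-90695721, minus strand). S100a11 (chr3:93520488-93526287) and S100a10 (chr3:93555080-93564643) are 28793 bases apart, both on the plus strand. The annexin members are dispersed: Anxa5 lies at chr3:36448925-36475843 on the minus strand, Anxa1 at chr19:20373428-20390944 on the minus strand, Anxa2 at chr9:69453620-69491795 on the plus strand and Anxa3 at chr5:96793385-96845968 on the plus strand. Values are per gene, over its exons, and do not separate transcripts.

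The 250 bases upstream of the RefSeq start (build GRCm38.p6) are printed for the 5 S100 genes on chromosome 3 that were higher in every CDAHFD library than in every control diet library of the same genotype. Of the members, 8 matched an entry of the RefSeq promoter table. The strand of each gene is shown 5′ to 3′, and capitals mark matches to 5 motifs: AP-1 (TGANTCA), GC box (GGGCGG), PU.1 (GAGGAA) and C/EBP (TTNNGNAA) on both strands, and the TATA box (TATAAA) on the gene strand.
S100a4, chr3:90603520-90603769, plus strand: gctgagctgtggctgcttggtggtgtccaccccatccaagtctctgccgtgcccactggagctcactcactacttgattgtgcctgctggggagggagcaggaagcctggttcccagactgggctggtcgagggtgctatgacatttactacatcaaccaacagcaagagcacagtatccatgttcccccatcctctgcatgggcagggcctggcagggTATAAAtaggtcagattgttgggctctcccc
S100a6, chr3:90612644-90612893, plus strand: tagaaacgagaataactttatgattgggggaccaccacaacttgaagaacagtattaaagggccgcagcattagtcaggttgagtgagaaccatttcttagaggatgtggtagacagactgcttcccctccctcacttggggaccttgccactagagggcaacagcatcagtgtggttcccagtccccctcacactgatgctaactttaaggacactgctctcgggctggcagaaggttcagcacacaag
S100a8, chr3:90668821-90669070, plus strand: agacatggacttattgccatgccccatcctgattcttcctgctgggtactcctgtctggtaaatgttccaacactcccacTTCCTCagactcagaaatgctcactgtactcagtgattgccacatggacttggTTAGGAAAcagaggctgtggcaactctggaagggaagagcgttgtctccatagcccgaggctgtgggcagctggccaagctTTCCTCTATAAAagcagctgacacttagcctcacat
S100a9, chr3:90695722-90695971, minus strand: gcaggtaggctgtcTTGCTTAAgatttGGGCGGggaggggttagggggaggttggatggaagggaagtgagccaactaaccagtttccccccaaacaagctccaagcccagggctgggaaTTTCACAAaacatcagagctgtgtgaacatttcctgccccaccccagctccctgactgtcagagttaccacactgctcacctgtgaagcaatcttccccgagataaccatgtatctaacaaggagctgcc
S100a11, chr3:93520246-93520495, plus strand: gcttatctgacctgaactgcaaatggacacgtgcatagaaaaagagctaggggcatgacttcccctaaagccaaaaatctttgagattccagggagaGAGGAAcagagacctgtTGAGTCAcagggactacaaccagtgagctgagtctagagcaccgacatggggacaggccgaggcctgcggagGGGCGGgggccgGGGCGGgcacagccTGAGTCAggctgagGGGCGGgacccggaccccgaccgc

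Counted from -1 at the base before the start, S100a4 held the TATA letters at -31 to -26 and S100a8 at -30 to -25, directly after a PU.1 match at -36 to -31. S100a6, also raised on CDAHFD, held none of the 5 motifs in its window. S100a8 held another PU.1 match at -170 and S100a9 held C/EBP matches at -236 and -130. S100a11 held the AP-1 letters at -136 and -38. Of the 32851 promoters in the table, cut to the same length, 7.59% held the TATA letters, 6.75% AP-1, 23.3% PU.1, 36.8% C/EBP and 32.7% the GC box. No match overlapped another in these windows. The matches are letters in a window, and binding was not measured.

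Libraries held 15641545 to 23276322 fragments assigned to genes (median 18950482.5), recovered from the table. At this depth 3 fragments on a gene of 1 kb correspond to 0.129 to 0.192 FPKM (fragments per kilobase of gene, scaled to the fragments assigned in that library). Thbs1 went against the labels on the control diet, with 0.197 ± 0.103 FPKM (mean ± SD, n = 5) in NDWT and 1.304 ± 0.390 FPKM in the libraries labelled TSP-1 null. On CDAHFD it had 4.62 ± 1.22 FPKM in HFWT and 3.44 ± 0.547 FPKM in HFKO, from 315 to 509 fragments per HFKO library, and was not called (log2FC -0.39, SE 0.24, FDR 0.408). A value over the whole gene does not tell apart fragments of deleted and remaining exons. Directions between genotypes are therefore given for the libraries as labelled. HFWT 5 held 24418 FPKM of the gene model Gm26924 against 2727 to 3889 FPKM in the other HFWT libraries, and it had the lowest value of its group for 7 of the 10 members. HFKO 4 was also the lowest of its group for 7 members, but had the least Gm26924 of the HFKO libraries, which held 5259 to 9976 FPKM. In the other groups the library with the most Gm26924 was the lowest for 6 (NDWT 4), 2 (NDKO 4) and 0 (HFKO 2) members. HFWT 5 and HFKO 4 were left out together, a choice made after seeing the data. The number of members called was then 9 and 9 in the diet comparisons in WT and TSP-1 null. It was 1 and 0 in the genotype comparisons on control diet and CDAHFD. With all 20 libraries the numbers were the same.

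On the control diet the members fell into a few abundant transcripts and many rare ones. S100a10 led in NDWT with 73.9 ± 14.4 FPKM, followed by Anxa5 with 44.6 ± 8.71 FPKM, and S100a10 was above Anxa5 in all 5 libraries although the ranges overlap. S100a11 came next with 8.43 ± 1.83 FPKM, below the range of Anxa5 and above that of Anxa2 (3.65 ± 1.03 FPKM). Anxa2 and Anxa3 (2.95 ± 0.164 FPKM) overlapped, and Anxa3 lay above S100a8 in every library. S100a8, Anxa1, S100a9, S100a6 and S100a4 ended the order with means of 1.77 down to 0.515 FPKM, each range overlapping its neighbour's. NDKO had S100a10 (60.3 ± 1.71 FPKM), Anxa5 (37.3 ± 2.28 FPKM) and S100a11 (6.18 ± 1.49 FPKM) in the same 3 places, with ranges that did not meet.

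On CDAHFD Anxa5 was the most abundant member, at 244 ± 30.7 FPKM in HFWT and 191 ± 21.7 FPKM in HFKO, above S100a11 and S100a10 in every library. S100a11 (95.5 ± 18.0 FPKM in HFWT) and S100a10 (84.8 ± 17.8 FPKM) overlapped, and S100a11 was the higher of them in 4 of 5 HFWT and 3 of 5 HFKO libraries. Anxa2 followed with 43.8 ± 5.08 FPKM in HFWT and 32.8 ± 6.49 FPKM in HFKO. S100a8 and S100a9 stood last in both groups. Together the 10 genes took 0.0192% (NDWT) and 0.0156% (NDKO) of all assigned fragments on control chow, and 0.0867% (HFWT) and 0.0671% (HFKO) on CDAHFD.

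**Figure D1:**
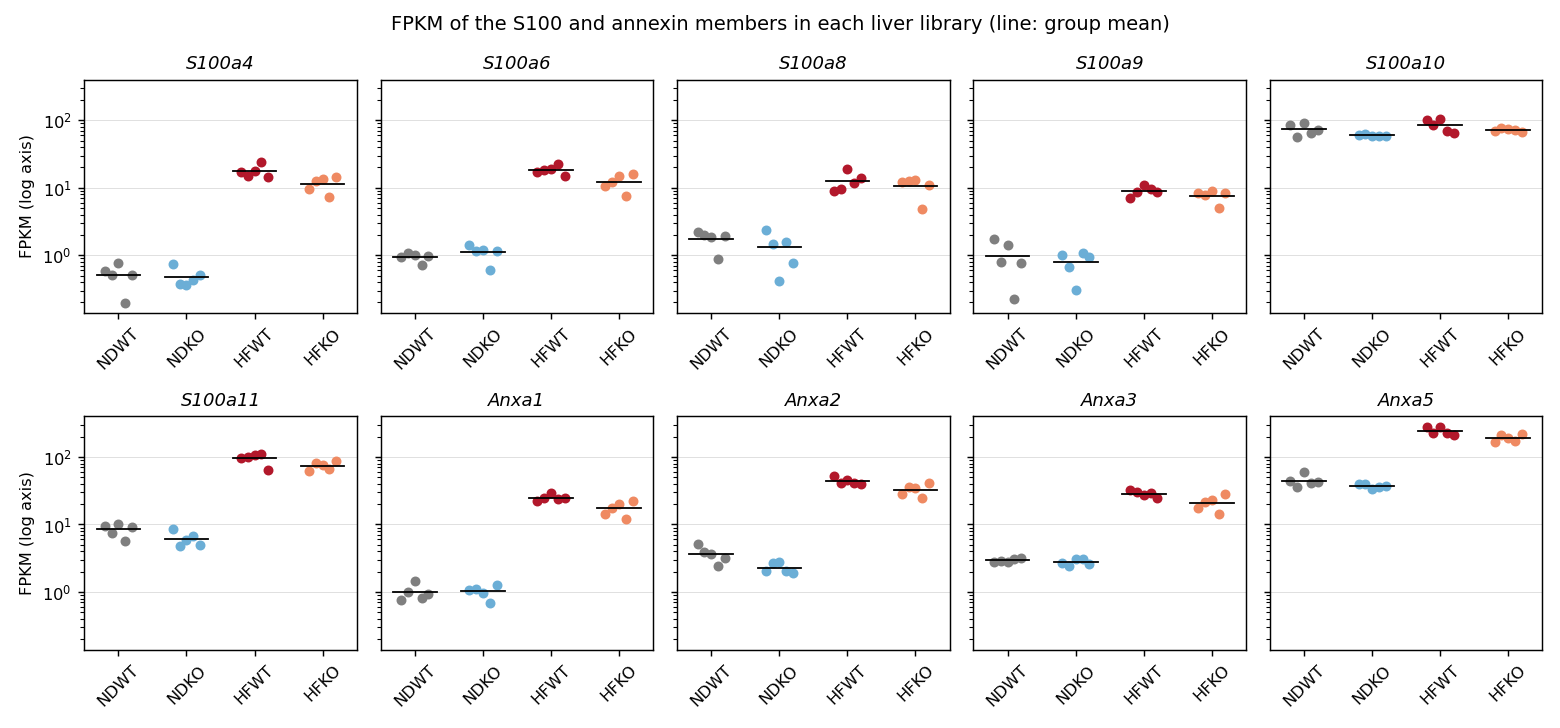
FPKM (log axis) of the 10 members in each liver library, with 1 point per library and a line at the mean of each group of 5. For every member except S100a10 the 10 CDAHFD libraries lie above the 10 control diet libraries.

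Feeding CDAHFD raised 9 of the 10 members in WT mice and the same 9 in TSP-1 null mice, by 5.13-fold to 34.2-fold in mean FPKM. The exception was S100a10. A gene was called at an FDR under 0.05 and an absolute log2 fold change (log2FC) above 0.58 in limma on log2(FPKM + 0.1). The diet changed much of the transcriptome by this rule: 44.1% of all tested genes were called higher in WT and 41.9% in TSP-1 null. The split of all calls depended on the scaling, with 6412 genes higher and 671 lower for WT mice, and 6088 higher and 581 lower for TSP-1 null mice. Median of ratios scaling gave 3299 higher and 2242 lower for WT, and 3225 higher and 1980 lower for TSP-1 null. Quantile normalization gave 2514 higher and 2562 lower for WT, and 2421 higher and 2186 lower for TSP-1 null. The median log2FC of the members was 3.38 in WT and 3.26 in TSP-1 null, beside 0.53 and 0.50 over all tested genes. The control and CDAHFD libraries did not overlap for 9 members in WT and for all 10 in TSP-1 null, beside 50.5% and 52.7% of all tested genes. The comparisons within WT and within TSP-1 null share no library, but both came from 1 joint fit, which gives a gene the same SE in each.

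S100a4, also called fibroblast specific protein 1 and carried by mesenchymal and myeloid cells, rose most. It measured 0.586, 0.510, 0.766, 0.199 and 0.512 FPKM in NDWT, from 2 to 8 fragments per library, and 16.9, 14.9, 17.6, 23.9 and 14.7 FPKM in HFWT. In NDKO it measured 0.743, 0.375, 0.364, 0.426 and 0.506 FPKM, and in HFKO 9.72, 12.6, 13.4, 7.33 and 14.7 FPKM. No control library came near a CDAHFD library. The log2FC was 4.91 (SE 0.25, FDR 3.41e-12) in WT and 4.31 (SE 0.25, FDR 2.40e-11) in TSP-1 null. The annotation of GENCODE M21 places a further protein coding model, Gm42674, on the same strand over S100a4. It shares 272 of the 553 distinct 31-base words of S100a4 and was not analysed here.

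S100a6, or calcyclin, whose partner Cacybp links it to protein degradation, rose with its neighbour. Its level was 0.956, 1.08, 1.02, 0.729 and 0.976 FPKM in NDWT and 17.1, 18.4, 19.3, 22.2 and 15.1 FPKM in HFWT. In TSP-1 null mice it was 1.42, 1.16, 1.19, 0.609 and 1.17 FPKM on control diet and 10.6, 12.3, 14.8, 7.60 and 15.98 FPKM on CDAHFD. The groups on either diet were far apart, and HFKO 4 had the lowest CDAHFD value. Control diet libraries held only 9 to 16 (NDWT) and 7 to 21 (NDKO) fragments of S100a6, which limits the precision of its fold changes. The log2FC was 4.14 (SE 0.20, FDR 1.66e-12) in WT and 3.35 (SE 0.20, FDR 3.30e-11) in TSP-1 null.

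S100a8 and S100a9, the subunits of calprotectin, rose to levels of the same order. S100a8 read 2.19, 1.99, 1.86, 0.892 and 1.92 FPKM in NDWT, and 8.82, 9.61, 18.7, 11.9 and 14.02 FPKM in HFWT. It read 2.35, 1.46, 0.409, 1.60 and 0.757 FPKM in NDKO, and 12.4, 12.4, 13.05, 4.78 and 10.8 FPKM in HFKO. The diets did not overlap, and HFKO 4 stood well below the other HFKO libraries. S100a9 read 1.73, 0.804, 1.40, 0.223 and 0.768 FPKM in NDWT, and 6.94, 8.54, 10.96, 9.60 and 8.64 FPKM in HFWT. It read 1.02, 0.675, 0.307, 1.08 and 0.948 FPKM in NDKO, and 8.33, 7.72, 9.05, 5.04 and 8.24 FPKM in HFKO. The same library, HFKO 4, was again the lowest of its group. The log2FC of S100a8 was 2.77 (SE 0.37, FDR 1.44e-06) in WT and 3.05 (SE 0.37, FDR 4.65e-07) in TSP-1 null. That of S100a9 was 3.27 (SE 0.36, FDR 1.23e-07) in WT and 3.17 (SE 0.36, FDR 2.07e-07) in TSP-1 null. Control diet libraries held only 3 to 20 fragments of S100a8 and 2 to 21 of S100a9, so these levels and their ratios are coarse.

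The tested neutrophil markers were also higher on CDAHFD. Of a list of 10, the receptor Csf3r, Retnlg and Ngp passed the filter, and all 3 were called higher in each genotype. The share called higher over all tested genes was 44.1% in WT and 41.9% in TSP-1 null. Ngp had at most 0.239 FPKM on the control diet and passed the filter only through CDAHFD libraries, so its call was favoured by the filter, whereas Csf3r and Retnlg were above 0.5 FPKM in at least 5 control libraries. The summed level of the list ran from 1.45 to 2.502 FPKM over the NDWT libraries and from 1.44 to 3.25 FPKM over NDKO. It ran from 11.1 to 14.2 FPKM over HFWT and from 7.99 to 15.98 FPKM over HFKO. Csf3r, which monocytes also carry, had the highest level of the list in every group. Ly6g had no fragment in any NDWT or HFWT library and at most 4 in HFKO, and the granule gene Mpo had none in NDWT or NDKO and 1 to 13 per CDAHFD library. HFKO 4 had the lowest neutrophil sum of its group, as it had the lowest S100a8 and S100a9. HFWT 3 had the highest sum (14.2 FPKM) and the highest S100a8 of its group. Other libraries differed: HFKO 5 had the highest sum (15.98 FPKM), but less S100a8 than every HFKO library except HFKO 4. HFWT 5 had the lowest sum of its group (11.1 FPKM), but more S100a8 than every HFWT library except HFWT 3. The part of neutrophils in the rise was not tested, and in bulk liver more cells of a type and more RNA per cell cannot be told apart.

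S100a11, a dimer that binds Anxa1 and takes part in membrane repair, rose from 9.59, 7.51, 10.2, 5.70 and 9.12 FPKM in NDWT to 95.4, 100.01, 105, 112 and 65.2 FPKM in HFWT. In TSP-1 null mice it went from 8.44, 4.82, 5.97, 6.73 and 4.94 FPKM in NDKO to 61.2, 81.9, 77.2, 66.9 and 86.4 FPKM in HFKO. Every CDAHFD library exceeded every control library by a wide margin, and HFWT 5 was the lowest HFWT library. The log2FC was 3.49 (SE 0.18, FDR 3.65e-12) in WT and 3.59 (SE 0.18, FDR 3.96e-12) in TSP-1 null. S100a11 shares 226 of its 481 distinct 31-base words with the processed pseudogene Gm12854 and 159 with Gm7665. Those rows held at most 28 and 16 fragments in any library, against 576 to 1137 fragments of S100a11 in HFWT, and how the authors' counting treated shared reads is not given in the sources used here.

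S100a10, or p11, which tethers Anxa2 and binds the plasminogen activator tPA and plasminogen at the cell surface, was the member that the diet moved least. Its level was 85.3, 56.8, 91.6, 64.5 and 71.3 FPKM in NDWT and 101, 85.0, 104, 70.4 and 64.0 FPKM in HFWT. These groups overlapped over most of their range. In NDKO it was 61.1, 62.9, 59.0, 59.3 and 59.1 FPKM, and in HFKO 70.2, 76.5, 73.1, 72.7 and 67.6 FPKM. Here all HFKO libraries lay above all NDKO libraries, a separation that 52.7% of all tested genes showed in this direction. The log2FC was 0.20 in WT (SE 0.13, 95% interval -0.07 to 0.46, FDR 0.174) and 0.26 in TSP-1 null (SE 0.13, 95% interval -0.01 to 0.52, FDR 0.0794), below the median of all genes. The SE came from the joint fit of all groups. The SD of S100a10 was 2.84% (NDKO) and 4.65% (HFKO) of the mean, against 19.5% (NDWT) and 20.9% (HFWT). Over the alternative settings the limma FDR in TSP-1 null ran from 0.000927 to 0.288, and the log2FC never passed 0.58. The sign of the S100a10 difference depended on the scaling. With median of ratios scaling, which shifted the median log2FC of all genes by -0.54 in WT and -0.51 in TSP-1 null, S100a10 had a log2FC of -0.37 (FDR 0.0111) and -0.28 (FDR 0.0482), short of the threshold of 0.58. The other 9 members were called higher under that scaling and under quantile normalization.

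Anxa1, the glucocorticoid induced inhibitor of leukocyte recruitment that signals through formyl peptide receptors, had the largest rise of the annexin members. It measured 0.758, 0.988, 1.47, 0.804 and 0.942 FPKM in NDWT, and 22.5, 24.3, 29.2, 23.6 and 24.7 FPKM in HFWT. It measured 1.08, 1.11, 0.964, 0.696 and 1.27 FPKM in NDKO, and 14.3, 17.6, 20.4, 12.2 and 22.3 FPKM in HFKO. The HFWT libraries were close to each other and the HFKO libraries more dispersed, with HFKO 4 the lowest. The log2FC was 4.54 (SE 0.18, FDR 1.70e-13) in WT and 3.94 (SE 0.18, FDR 1.61e-12) in TSP-1 null.

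Anxa2, the partner of S100a10, rose from 5.19, 3.90, 3.60, 2.39 and 3.16 FPKM in NDWT to 51.9, 41.0, 45.5, 41.4 and 39.2 FPKM in HFWT. In TSP-1 null mice it rose from 2.05, 2.68, 2.80, 2.05 and 1.94 FPKM to 28.7, 35.7, 34.3, 24.4 and 41.2 FPKM. The diets did not overlap in either genotype. The log2FC was 3.59 (SE 0.17, FDR 1.60e-12) in WT and 3.77 (SE 0.17, FDR 1.71e-12) in TSP-1 null. The antisense gene Gm16144 overlaps Anxa2 and had at most 15 fragments in any library. The libraries were made with a directional kit, but whether counting used strand is not given in the sources used here.

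Anxa3, known from bile duct and myeloid cells, was 2.83, 2.89, 2.78, 3.10 and 3.14 FPKM in NDWT and 31.9, 29.9, 27.4, 28.9 and 24.4 FPKM in HFWT. It was 2.67, 2.43, 3.08, 3.06 and 2.63 FPKM in NDKO and 17.5, 21.3, 23.0, 14.3 and 27.9 FPKM in HFKO. NDWT and NDKO varied little, and HFKO varied most. The log2FC was 3.23 (SE 0.13, FDR 2.94e-13) in WT and 2.83 (SE 0.13, FDR 2.13e-12) in TSP-1 null.

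Anxa5, which binds exposed phosphatidylserine and is used as a stain of dying cells, was already abundant and rose further. It was 43.7, 36.0, 59.2, 41.0 and 43.0 FPKM in NDWT and 275, 230.4, 278, 224 and 211 FPKM in HFWT. It was 39.3, 39.7, 34.1, 36.4 and 36.8 FPKM in NDKO and 167, 209, 193, 172 and 215 FPKM in HFKO. The gap between the diets was wide, although this was the smallest rise among the 9 called members. The log2FC was 2.46 (SE 0.11, FDR 1.16e-12) in WT and 2.35 (SE 0.11, FDR 3.11e-12) in TSP-1 null.

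**Figure D2:**
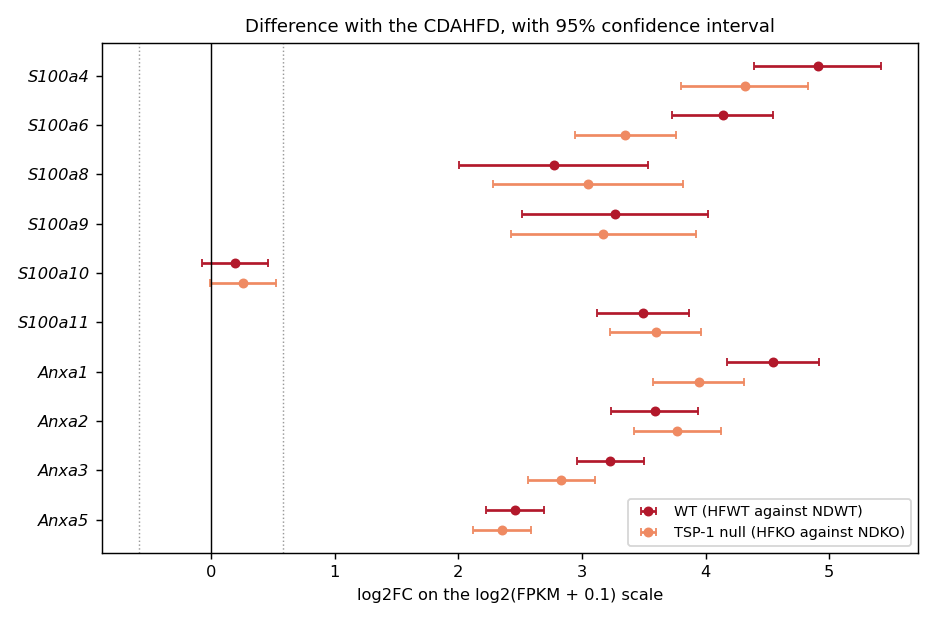
Difference with CDAHFD (log2FC on the log2(FPKM + 0.1) scale) for each member, by genotype, with 95% confidence intervals and dotted lines at 0.58 in either direction. S100a10 alone has intervals that include 0, at 0.20 and 0.26, while the others lie between 2.35 and 4.91. The intervals use the SE of the joint fit, which is the same for both genotypes.

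Anxa2 rose by far more than its partner S100a10, and the balance within the pair differed between the diets. The ratio of Anxa2 to S100a10 within a library, in FPKM, was 0.0501 ± 0.0140 in NDWT and 0.0382 ± 0.00647 in NDKO. It was 0.527 ± 0.0725 in HFWT and 0.458 ± 0.101 in HFKO. The highest control library had 0.0688 and the lowest CDAHFD library 0.335. The ratio does not change when a whole library is rescaled. S100a11 to S100a10, neighbours on the chromosome, had a ratio of 0.115 ± 0.0172 in NDWT against 1.15 ± 0.259 in HFWT, and of 0.103 ± 0.0246 in NDKO against 1.04 ± 0.158 in HFKO. S100a8 to S100a9 had a ratio of 2.31 ± 1.11 (NDWT), 1.39 ± 0.257 (HFWT), 1.61 ± 0.619 (NDKO) and 1.36 ± 0.252 (HFKO). These groups overlap, and the highest control value, 4.00 in NDWT 4, came from 6 and 2 fragments. These ratios are of transcripts, and protein was not measured.

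**Figure D3:**
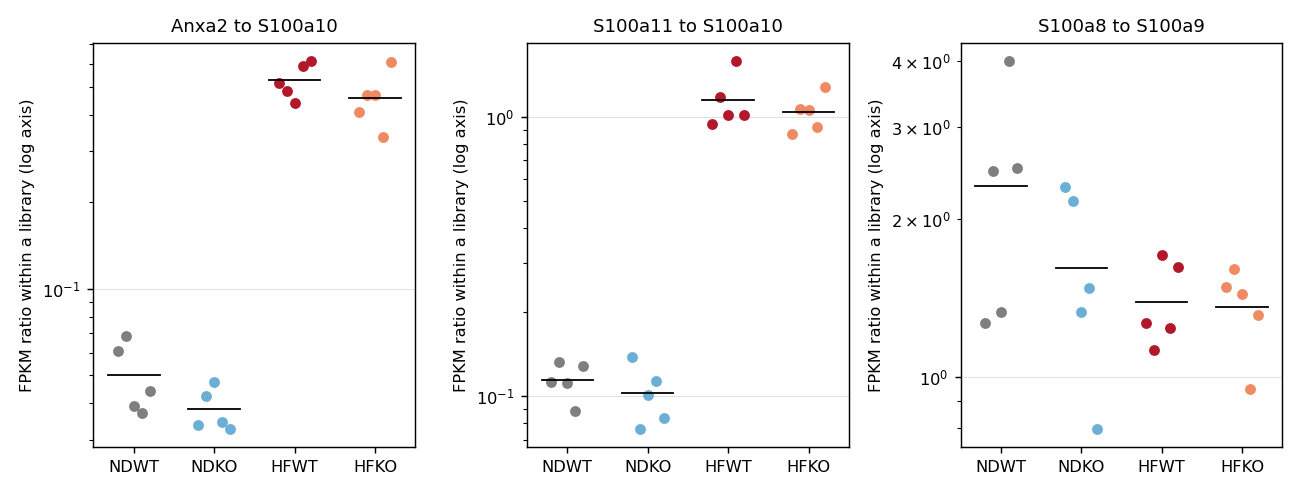
Ratio of FPKM within each library (log axis) for Anxa2 to S100a10, S100a11 to S100a10 and S100a8 to S100a9, with 1 point per library and a line at the group mean. The first and second ratios are separate between the diets, at most 0.138 in any control diet library and at least 0.335 in any CDAHFD library, and the third overlaps.

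Genes of the same families and their known partners were read for context. Of 10 further S100 genes in the table, 4 passed the filter. Of these, 2 were called higher in WT and 1 in TSP-1 null, beside 44.1% and 41.9% of all tested genes. S100g, the call in TSP-1 null and one of those in WT, passed the filter only through CDAHFD libraries, and of the other 3 only S100a16 was called, in WT. S100a1 (91.1 ± 6.67 FPKM in NDWT and 84.8 ± 5.74 in HFWT) and S100a13 (25.6 ± 2.51 and 24.1 ± 3.70 FPKM) were not called in either genotype, with a log2FC of -0.10 and -0.09 in WT. Under median of ratios scaling both were called lower, S100a1 at -0.66 in WT and -0.82 in TSP-1 null and S100a13 at -0.65 and -0.74. Quantile normalization called neither, with -0.11 and -0.30 for S100a1 and -0.37 and -0.50 for S100a13. S100a16 rose in WT (log2FC 0.62, SE 0.13, FDR 0.000186), from 9.49 ± 1.96 to 14.4 ± 0.962 FPKM, and had a log2FC of 0.06 with median of ratios and 0.18 with quantile normalization, not called. S100g, or calbindin-D9k, had 0 or 1 fragment in each control library, 1 to 11 in HFWT and 1 to 8 in HFKO, with 1 in HFWT 2 and 1 in HFKO 2. S100a3, S100a5, S100a7a and S100z had at most 3 fragments in every library.

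Of 6 other annexins tested, 5 were called higher in WT and 5 in TSP-1 null, beside 44.1% and 41.9% of all tested genes. Anxa13 (log2FC 3.63, SE 0.30, FDR 2.96e-09 in WT), Anxa9 (2.82, SE 0.21, FDR 4.78e-10) and Anxa4 (2.00, SE 0.06, FDR 1.37e-14) rose most. Anxa6, the most abundant of them, rose from 35.6 ± 2.33 to 63.2 ± 7.18 FPKM in WT, a log2FC of 0.82 (SE 0.07, FDR 6.81e-09). Anxa7 passed in WT (log2FC 0.61, FDR 1.91e-06) and Anxa11 in TSP-1 null (log2FC 0.75, FDR 3.39e-05). Anxa4, Anxa6, Anxa9 and Anxa13 passed in both. With median of ratios scaling Anxa4, Anxa9 and Anxa13 were the annexins of this list called in either genotype. Anxa10 had at most 3 fragments in every library.

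Of 19 tested partners and receptors, 13 were called higher in each genotype and none lower. The share called higher over all tested genes was 44.1% in WT and 41.9% in TSP-1 null. Of the 19, 4 (Plat, Plaur, Ager and Pla2g4a) were above 0.5 FPKM in too few control libraries to pass without the CDAHFD groups, and of the other 15, 9 were called higher in each genotype. With median of ratios scaling 8 were higher and 4 lower (Plg, Cacybp, Dysf and Fpr1) in WT, and 10 higher and 1 lower (Plg) in TSP-1 null. With quantile normalization 7 were higher and 3 lower (Cacybp, Dysf and Fpr1) in WT, and 7 higher and 1 lower (Dysf) in TSP-1 null. The tPA gene Plat, whose product binds p11, went from 0.125 ± 0.103 to 7.48 ± 1.53 FPKM in WT (2 to 17 fragments per NDWT library), a log2FC of 5.16 (SE 0.24, FDR 1.58e-12). The urokinase receptor gene Plaur (log2FC 4.41, SE 0.21, FDR 1.46e-12) and urokinase itself, Plau (3.56, SE 0.24, FDR 1.54e-10), rose as well. Their substrate, the plasminogen gene Plg, did not pass the fold threshold, with 854 FPKM in NDWT and 616 FPKM in HFWT (log2FC -0.47). In WT it passed with median of ratios scaling (-1.03) but not with quantile normalization (-0.12, FDR 0.201). In TSP-1 null these scalings gave -0.99 and 0.12 (FDR 0.197 for the latter). Ahnak, a scaffold of the Anxa2 and S100a10 complex, rose by a log2FC of 2.67 (SE 0.14, FDR 6.45e-12). Alcam (2.22, FDR 1.89e-12) and Nptn (0.93, FDR 8.65e-11), reported receptors of S100a8 and S100a9, were also higher, Nptn not being called with median of ratios (0.38) or quantile normalization (0.41). The same 6 genes, Plat, Plaur, Plau, Ahnak, Alcam and Nptn, had the lowest FDR in TSP-1 null, with a log2FC of 4.69, 4.32, 3.17, 2.36, 2.24 and 0.80.

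Markers of other cells differed between lists on CDAHFD. Of all tested genes, 44.1% were called higher in WT and 41.9% in TSP-1 null. The shares called lower were 4.62% in WT and 4% in TSP-1 null. Macrophage and monocyte markers summed to 143 to 195 FPKM over the NDWT libraries and 907 to 1218 FPKM over HFWT, and to 136 to 229.7 FPKM over NDKO and 562 to 1144 FPKM over HFKO. Lyz2 had the highest level of this list, at 870 FPKM in HFWT and 621 FPKM in HFKO. Of 10 tested, 7 were called higher in each genotype. Of the 10, 7 passed the filter on control libraries alone, with 4 higher and 2 lower. The 2 called lower were the Kupffer cell genes Clec4f and Timd4. Stellate cell and myofibroblast markers were led by Dcn, at 204 FPKM in HFWT and 151 FPKM in HFKO. Their sum was 49.8 to 63.1 FPKM (NDWT), 282 to 545 FPKM (HFWT), 63.4 to 69.7 FPKM (NDKO) and 286 to 393 FPKM (HFKO). Of these markers, 9 of 9 were called higher in each genotype. Cholangiocyte markers, 5 of 5 tested called higher (3 of 3 that passed on control libraries alone), summed to 6.74 to 9.32, 33.7 to 60.7, 8.49 to 10.3 and 28.3 to 47.9 FPKM in the same order of groups. T and B cell markers, 6 of 6 called higher (3 of 3 likewise), summed to 1.55 to 4.68, 7.04 to 13.8, 2.57 to 4.41 and 6.96 to 14.7 FPKM. Endothelial markers had 1 of 5 called higher in WT and 2 of 5 in TSP-1 null. Hepatocyte markers, led by Alb, stayed above 28457 FPKM in sum in every library, with 3 of 6 called lower in TSP-1 null. The part of these cells in the rise of the members was not tested.

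On the control diet, Anxa2 was the only member called between genotypes. It was lower in the libraries labelled TSP-1 null, at 2.30 ± 0.402 against 3.65 ± 1.03 FPKM, with a log2FC of -0.61 (SE 0.17, FDR 0.0216), and the groups overlapped because NDWT 4 (2.39 FPKM) lay within the NDKO range. Of all tested genes, 3.03% were called lower in this comparison and 1.74% higher (440 and 253 genes, but 329 and 348 with median of ratios and 236 and 246 with quantile normalization). The call was lost without NDWT 1 (log2FC -0.48, FDR 0.0567), NDWT 2 (-0.58, FDR 0.0459), NDKO 1 (-0.58, FDR 0.0569), NDKO 4 (-0.58, FDR 0.0499) or NDKO 5 (-0.56, FDR 0.0452). It was also lost in a fit of only the groups compared (FDR 0.0563), with a pseudocount of 1 (log2FC -0.47) and under median of ratios (-0.54) and quantile (-0.49) scaling. S100a11, S100a10 and Anxa5 had an unadjusted p of 0.0211, 0.0467 and 0.0451 in limma, with a log2FC of -0.44, -0.27 and -0.24, and did not pass the FDR. With Anxa2 these were 4 of 10 members at an unadjusted p under 0.05, beside 27.3% of all tested genes. NDKO libraries were close to each other in S100a10 (SD 1.71 FPKM), while NDWT libraries ranged from 56.8 to 91.6 FPKM. Between these genotypes 2 of 6 hepatocyte markers and 1 of 10 macrophage and monocyte markers were called higher. Of the stellate markers, 1 of 9 was called lower, and no marker of the other lists was called. The part of these cells in the members' values was not tested.

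On CDAHFD the question was whether loss of TSP-1 altered the raised levels. None of the 10 members passed in limma, beside 0.33% of all tested genes called lower and 0.165% higher (48 and 24 genes, but 27 and 38 with median of ratios and 39 and 65 with quantile normalization). All 10 had a log2FC below 0, from -0.62 for S100a4 to -0.21 for S100a10, and so did 70.6% of all tested genes. The median was -0.39, beside -0.10 over all tested genes, and it was -0.29 with median of ratios and -0.39 with quantile normalization. At an unadjusted p under 0.05, without regard to fold, 6 members were lower, beside 14.2% of all tested genes: Anxa3, S100a6, Anxa5, Anxa1, Anxa2 and S100a4.

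S100a4 (17.6 ± 3.74 FPKM in HFWT and 11.54 ± 2.97 in HFKO) and Anxa1 (24.9 ± 2.55 and 17.4 ± 4.16 FPKM) were the members whose groups did not overlap, beside 4.13% of all tested genes in that direction. The margin was small: the highest HFKO library of S100a4 had 14.661 FPKM and the lowest HFWT library 14.685 FPKM. S100a4 had a log2FC of -0.62 (SE 0.25, 95% interval -1.14 to -0.11, FDR 0.200) and Anxa1 of -0.55 (SE 0.18, 95% interval -0.91 to -0.18, FDR 0.126). Anxa3 had the lowest FDR (log2FC -0.49, SE 0.13, 95% interval -0.76 to -0.21, FDR 0.0740), and S100a6 followed (-0.62, SE 0.20, 95% interval -1.03 to -0.21, FDR 0.119). S100a8 and S100a9 were nearest to no difference by their p, at -0.27 (SE 0.37, FDR 0.735) and -0.23 (SE 0.36, FDR 0.771), with intervals reaching 0.50 and 0.52.

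These calls moved with the method. In limma voom on the recovered fragments, S100a4 (log2FC -0.65, FDR 0.0423) and S100a6 (-0.64, FDR 0.0278) were called lower in the libraries labelled TSP-1 null. Anxa1 (-0.55, FDR 0.0254) and Anxa3 (-0.49, FDR 0.0356) passed the FDR in voom but not the fold threshold. With a pseudocount of 1, S100a6 was called (-0.58, FDR 0.0458), and Anxa1 (FDR 0.0449) and Anxa3 (FDR 0.0470) again passed the FDR alone. Under median of ratios and quantile scaling the lowest FDR of a member was 0.161 and 0.0725, both of Anxa3. Without HFKO 5, the HFKO library with the highest value of 7 members, Anxa3 was called (-0.60, FDR 0.0153). Without both HFWT 5 and HFKO 4, none was called, S100a8 turned to 0.05 (FDR 0.963) and the others stayed below 0. Macrophage and monocyte markers had 7 of 10 log2FC below 0 in this comparison, stellate markers 8 of 9 and cholangiocyte markers 4 of 5, with none called, beside 70.6% of all tested genes. Neutrophil markers had 1 of 3 below 0, T and B cell markers 3 of 6, endothelial markers 1 of 5 and hepatocyte markers 2 of 6, also with none called. The part of these cells in the members' values was not tested.

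**Figure D4:**
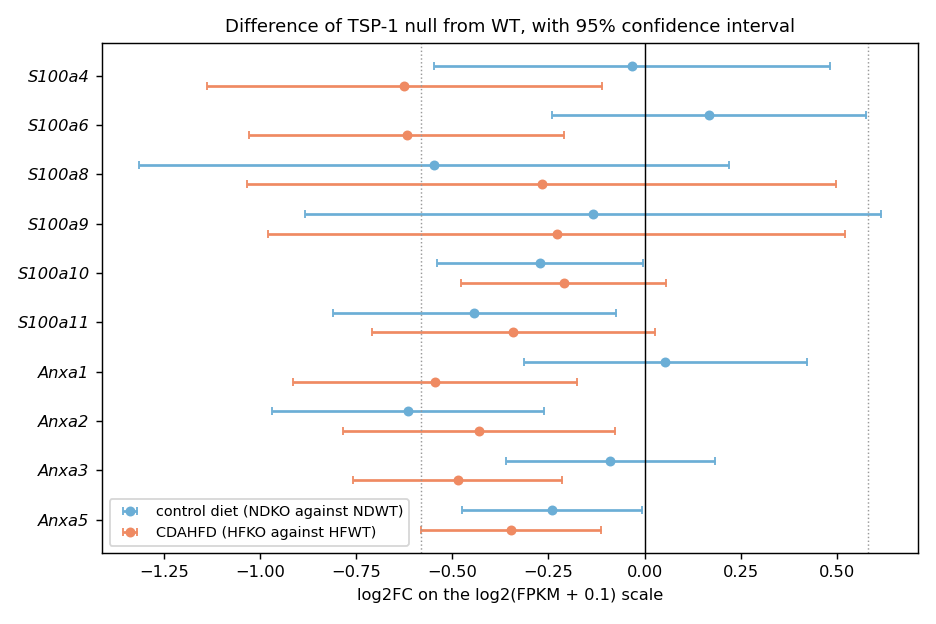
Difference of the libraries labelled TSP-1 null from WT (log2FC on the log2(FPKM + 0.1) scale) for each member on the control diet and on CDAHFD, with 95% confidence intervals and dotted lines at 0.58 in either direction. On CDAHFD all 10 points lie below 0, between -0.62 and -0.21, and on the control diet Anxa2 is the lowest at -0.61.

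The interaction asks whether the genotype difference itself differed between diets (HFKO less HFWT, minus NDKO less NDWT). It was called for none of the 10 members, beside 0.647% of all tested genes in either direction. In limma 3 members had an unadjusted p under 0.05, beside 15.1% of all tested genes. S100a6 (-0.79, SE 0.28, 95% interval -1.37 to -0.21, FDR 0.177), Anxa1 (-0.60, SE 0.25, 95% interval -1.12 to -0.08, FDR 0.254) and Anxa3 (-0.40, SE 0.18, 95% interval -0.78 to -0.01, FDR 0.310) were the 3. Voom called no member either. Among the cell type markers, 1 of 10 macrophage and monocyte markers was called lower in the limma interaction, and no marker of the other lists. For S100a8 the interval ran from -0.81 to 1.36.

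Among partners, Cacybp, which binds S100a6, was lower in the NDKO libraries (7.77 ± 1.60 FPKM) than in NDWT (12.8 ± 0.876 FPKM), with a log2FC of -0.73 (SE 0.11, FDR 0.000522) and no overlap. Cd36, a fatty acid receptor that takes up the arachidonate carried by S100a8 and S100a9, had 12.0 ± 5.54 against 28.0 ± 11.7 FPKM (log2FC -1.21, SE 0.27, FDR 0.00619), with overlap. Pla2g4a, the phospholipase inhibited by annexins, had 0.224 ± 0.0266 against 0.435 ± 0.105 FPKM (log2FC -0.70, SE 0.17, FDR 0.0105). With quantile normalization Pla2g4a was not called (-0.56). Anxa4 was lower in the libraries labelled TSP-1 null with no overlap on both diets. Its log2FC was -0.36 (FDR 0.00155) on control diet and -0.33 (FDR 0.0160) on CDAHFD, short of 0.58. On CDAHFD it was -0.23 (FDR 0.0817) with median of ratios and -0.31 (FDR 0.0195) with quantile normalization. Of all tested genes, 6.69% lay lower without overlap on control diet and 4.13% on CDAHFD. No further S100 gene, annexin or partner was called between genotypes on either diet or in the interaction.

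Within groups the members varied together to differing degrees. Deviations from the group means, over 20 libraries, had a Pearson r above 0 in 44 of 45 pairs of members, with a median of 0.37. The closest pairs were S100a10 and Anxa5 (r = 0.77), S100a4 and S100a11 (0.77), S100a4 and S100a9 (0.77) and S100a8 and S100a9 (0.74). These are descriptions: all genes of a library share its tissue piece and depth. Control diet libraries held at most 21 fragments of S100a4, S100a6, S100a8 or S100a9, and as few as 2. The r values of these genes therefore rest partly on coarse values. In HFKO 4 the deviations of the members ran from -1.06 to 0.01 on the log2 scale, with a median of -0.49. In HFKO 5 the median was 0.28, and in HFWT 5 it was -0.21. HFKO 4 also had the lowest macrophage and monocyte sum of its group (562 FPKM) and the lowest stellate sum (286 FPKM), while HFKO 5 had the highest of each (1144 and 393 FPKM). The hepatocyte sum went the other way, highest of its group in HFKO 4 (47800 FPKM) and lowest in HFKO 5 (35913 FPKM). In HFWT the sums did not move together. HFWT 5 had the lowest macrophage and monocyte sum (907 FPKM), but HFWT 4 the lowest stellate sum (282 FPKM) and highest hepatocyte sum (40410 FPKM). In HFWT 4 the median deviation of the members was -0.002, with S100a4 at 0.46.

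**Figure D5:**
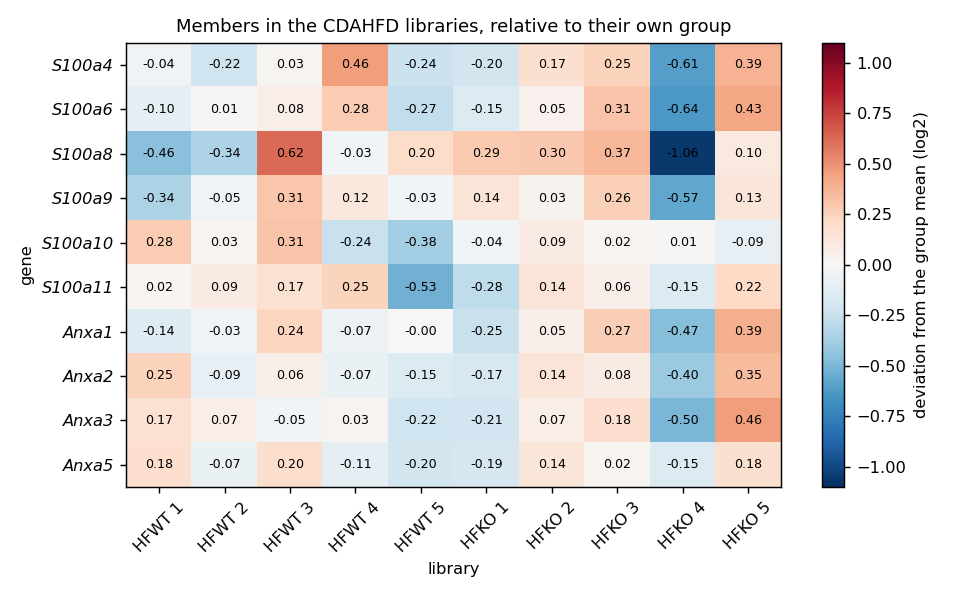
Deviation of each member from its own group mean (log2 scale) in the 5 HFWT and 5 HFKO libraries, with the value in each cell and blue for below the mean. HFKO 4 is below its group mean for nearly all members, with a median of -0.49, and HFKO 5 is above it for most, with a median of 0.28.

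Outside the families, the tested gene whose deviations were most like those of each member was Arhgap10 for S100a4 (r = 0.88), Gpr132 for S100a6 (0.87), Hmgb1-ps8 for S100a8 (0.81), Ccdc90b for S100a9 (0.85) and Mogat2 for S100a10 (0.85). It was Myo1g for S100a11 (0.87), Snx27 for Anxa1 (0.85), Tgm2 for Anxa2 (0.90), Cd72 for Anxa3 (0.85) and Pacsin2 for Anxa5 (0.87). Each r is over the same 20 libraries and is the highest of all tested genes, so high values are inherent in the choice.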

How the data were processed

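FPKM values of 38924 genes in 20 liver libraries were used as deposited. The authors made them from poly(A) RNA with a directional library kit and QuickRNASeq. The submitters' processing notes list STAR 2.5.2, Subread 1.5.1 with featureCounts and the build GRCh38. Table coordinates match GRCm38, where 99.8% of the 37607 identifiers that GENCODE M21 holds overlap their gene. The sources differ on the lobe sampled (right medial or right lateral).

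Fragments per gene were recovered from FPKM and gene length (100% of checkable values whole within the rounding of 0.0005 FPKM, at least 99.9% of positive values checkable). The 3 fragment floors cover counting error only, since molecules carried no identifiers. Differences were tested with limma 3.58.1 in R 4.3.3 on log2(FPKM + 0.1), 1 joint fit of the 20 libraries with group means and trended eBayes, for the 14524 genes that exceeded 0.5 FPKM in 5 or more libraries. Such a log2FC understates the change of low genes. FDR is two-sided Benjamini-Hochberg over all tested genes in a comparison. The fit was tested on simulated data. Within groups no pair of libraries was a copy (chi-square per degree of freedom at least 12.1 over 40 pairs). Python 3.11.15 with numpy 2.4.6, pandas 2.3.3 and, for plots, matplotlib 3.10.9 made the tables.

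The members and lists were chosen with earlier results of these data known. Lists comprised other S100 genes, other annexins, partners and receptors, and markers of 7 cell types. All members were named in every comparison, and of each list the called genes, at most the 6 with the lowest FDR. Plg, Ager, Anxa4 between genotypes, Clec4f, Timd4, Csf3r, Ly6g, Mpo, S100a1, S100a13, S100g by library, Gm26924 and the overlapping or copied gene models were named after their values were seen. Dysf, Fpr1 and, between diets, Cacybp were also named after their values were seen. S100a7l2 was not analysed here. Alternatives were other pseudocounts, filters, scalings and eBayes settings, voom, a replicate block and leaving out each mouse.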

Additional observations from a re-analysis of the deposited data

Results flagged for a closer look

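In a check of each member in each of the 4 groups (40 groups of 5 libraries, of which chance would mark about 1 in 20), 2 values stood far from the rest of their group, both of S100a8. S100a8 was 0.892 FPKM in NDWT 4, from 6 fragments, while the other NDWT libraries had 1.86 to 2.19 FPKM. S100a8 was 4.776 FPKM in HFKO 4, while the other HFKO libraries had 10.8 to 13.05 FPKM. In NDWT 4 S100a9 was also the lowest of its group (0.223 FPKM), and in HFKO 4 so was S100a9 (5.04 FPKM). Neither value was removed from the comparisons.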

How the results depend on the processing

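The 9 members called higher on CDAHFD numbered 9 in both genotypes under each of the 34 alternatives. The count of members called on control diet between genotypes was 0 with a pseudocount of 1, with median of ratios scaling, with quantile normalization and in a fit of only the groups compared, and 0 to 1 leaving out 1 mouse. On CDAHFD it was 1 with a pseudocount of 1, 2 with voom and 0 to 1 leaving out 1 mouse. In the interaction it was 0 throughout. With a replicate block, the counts were 9, 9, 1, 0 and 0, as without it. The numbers are only names here: correlations of deviations between libraries sharing a number ran from -0.13 to 0.08, none above 0.1, over 20 pairs in the 4 comparisons.

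Signs turned in small differences that passed no threshold. S100a10 with the diet turned to -0.37 in WT and -0.28 in TSP-1 null with median of ratios scaling. Between genotypes on control diet S100a4 turned to 0.034 with that scaling and ranged from -0.27 to 0.11 leaving out 1 mouse, S100a9 from -0.52 to 0.13 and Anxa1 from -0.024 to 0.19. On CDAHFD S100a8 ranged from -0.38 to 0.049, the latter without both HFWT 5 and HFKO 4. In the interaction the ranges were -0.040 to 0.60 for S100a8 and -0.038 to 0.15 for S100a10. The values 0.60 and -0.038 came without both HFWT 5 and HFKO 4. Leaving out 1 mouse, the ranges were -0.36 to 0.29 for S100a9 and -0.030 to 0.23 for S100a11. Quantile normalization gave -0.00029 for S100a10 and -0.0034 for S100a11. The cause was not tested.

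For the lists, the other S100 genes called in WT, 2 in the report, numbered 1 with a pseudocount of 1 or quantile normalization, 3 with median of ratios scaling (1 higher, 2 lower) and 1 to 2 leaving out 1 mouse (1 without NDWT 3 or NDWT 4). In TSP-1 null, with 1 in the report, they numbered 0 with a pseudocount of 1 or quantile normalization, 3 with median of ratios scaling, of which 2 were lower, and 1 to 2 leaving out 1 mouse (2 without NDKO 3 or HFKO 2). The other annexins called numbered 3 in WT and 3 in TSP-1 null with median of ratios scaling, and 3 in TSP-1 null with quantile normalization, which left 8 partners called there, 1 of them lower.

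Quantities near the floor, S100a4, S100a8 and S100a9 on the control diet with as few as 2 or 3 fragments, limit the precision of their fold changes. S100a6 had 9 to 16 fragments per library in NDWT and 7 to 21 in NDKO, so its fold changes and interaction also rest on small counts.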
